A study of Mus musculus with 2 samples.

Results

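The genes described here are 9 cell-surface proteins used to mark stem cell compartments of mouse skin: Cd34, Lgr5, Lgr6, Lgr4, Lrig1, Plet1, Ly6a, Procr and Tnfrsf19. They were taken by symbol from the feature table of a single-cell RNA-seq experiment, where each matched 1 of 31053 features. Their unique molecular identifiers (UMIs, which count captured mRNA molecules) were read in keratinocytes, defined as cells with at least 20 UMIs of Krt5 plus Krt14, the keratins of the basal layer. Of 7564 cells that passed the quality filter, 5868 were keratinocytes, 3186 in the control library and 2682 in the miR-205 inducible library.

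The study asked how raising the microRNA miR-205 in skin epithelium affects hair regeneration, and compared back skin of 1 control mouse with that of 1 miR-205 inducible mouse at P53. Both were C57BL/6 by their labels, matched for sex, and carried K14-H2BGFP, a nuclear green reporter under the Krt14 promoter. The inducible line holds a pTRE2-miR-205 transgene, injected into FVB founders, that is switched on by doxycycline through Krt14-rtTA, so that it acts in cells that use the Krt14 promoter. Doxycycline chow was given for 4 days from P49. The sample characteristics call the control untreated, whereas the extraction protocol says that doxycycline went to both mice, and the transgenes of the control are not given in the sources used here. Cells were sorted on H2BGFP and surface proteins so that epidermis, follicle and dermis contributed 3:5:2. For sorts of this reporter line after 2 or 4 days of doxycycline, the methods name antibodies against integrin α6, CD34 and Sca1. These are the products of Itga6, Cd34 and Ly6a. The hair follicle stem cell gate took cells high in integrin α6 and CD34 and negative for Sca1. The gates of the 3:5:2 sort are not stated. Where it used these antibodies, the share of cells carrying Cd34 or Ly6a can be set by the sort, and so can their overlap. With 1 library per group no test of the induction was possible. Every interval given here is at 95% and covers counting error only, and a difference between the libraries cannot be told apart from a difference between 2 mice or 2 sorts.

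In resting skin, quiescent stem cells of the hair follicle sit in the bulge and carry CD34, while the hair germ below them is the first part of the follicle to divide when growth resumes. Above the bulge lie the isthmus, the sebaceous gland and the upper follicle, and between follicles the interfollicular epidermis (IFE) renews itself from its own basal cells. LGR4, LGR5 and LGR6 are receptors for R-spondins, secreted proteins that strengthen Wnt signalling by keeping the ubiquitin ligases ZNRF3 and RNF43 away from Frizzled receptors. LRIG1 restrains ErbB receptors, Sca1 (Ly6a) and PLET1 are membrane-anchored proteins used to sort epidermal and upper follicle cells, PROCR binds protein C, and TNFRSF19 (TROY) is a TNF receptor family member and a Wnt target in several stem cells.

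The libraries were close in depth. The control library held 55465594 UMIs in 4545 barcodes and the induced library 49733560 in 4264, and the median keratinocyte held 12674.5 and 12714 UMIs. The libraries shared 11 barcodes, of which 3 were keratinocytes in both. Krt5 stood at 4417 CPM (UMIs per 1000000 UMIs of the pool) in control keratinocytes and 4358 in induced ones, and Krt14 at 10837 and 8888 CPM. Summed markers of fibroblasts in the gate came to 124 and 199 CPM over 6 detected genes, those of smooth muscle to 10.2 and 25.4 CPM with 1 of 5 genes at 0 in the induced library, and those of T cells to 2.60 and 4.62 CPM over 6 detected genes. Langerhans or antigen-presenting markers came to 299.8 and 197 CPM over 6 detected genes and Schwann markers to 66.4 and 55.8 CPM with 1 of 5 genes at 0 in the induced library, while melanocyte markers (21.2 and 25.2 CPM) and endothelial markers (2.16 and 3.44 CPM) were all detected. Their part in the member values was not tested.

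The sequence that the study raised is shown first, with its seed (bases 2 to 8, which pair with targets) in capitals. Mature miR-205-5p lies on the minus strand at chr1:193507503-193507524 of GRCm38.p6 (RefSeq).
miR-205-5p: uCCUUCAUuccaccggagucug
The 7-base complement of this seed, ATGAAGG, was searched on the transcribed strand of the longest annotated 3′ UTR of each gene. Of 19915 genes, 10.4% held it. Among the 9 surface markers only Plet1 held it, once, from base 80 of a UTR of 1094 bases, where 8.69% of genes with a UTR of like length held it. The stretch around it is shown with the 7 bases in capitals.
Plet1 3′ UTR: aacatacccgaATGAAGGttttatgtcct
The letters were not found in the annotated UTRs of the other 8 members, whose lengths ran from 384 bases (Ly6a) to 2623 bases (Tnfrsf19). A match is a description of the sequence and not a measured site.

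Both libraries were integrated and clustered with the 9 members and the listed genes withheld, which gave 25 clusters, 16 of them of keratinocytes. Clusters 1 and 19 were HF-SC-like (hair follicle stem cell-like), with Krt24, Krt15, Postn and Lhx2 raised. Cluster 4 was inner bulge-like (Krt75, Fgf18) with 5 HF-SC markers raised as well, and cluster 13 was upper bulge or isthmus-like (Pthlh, Aspn, Gli1) with 4 HF-SC markers raised. Cluster 5 was upper HF-like (Krt79, Defb6), cluster 10 IFE suprabasal-like (Krt1, Krt10), cluster 14 cycling-like (Mki67, Top2a) and cluster 15 sebaceous gland-like (Scd3, Elovl3). The other 8 stayed unnamed and are given by their leading genes. Cluster 7 was led by Atp6v1b1 and Slc38a4 together with the contractile genes Tagln and Acta2, and had the hair germ markers Cdh3, Gli1, Msx2, Lef1 and Wnt10b raised along with 3 of 5 smooth muscle markers. Cluster 0 was led by Mmp10 and Has3, with the IFE basal markers Thbs1, Igfbp3 and Epgn raised, cluster 12 by Edn2 and Slc2a12, and cluster 16 by Sostdc1, Klf2 and Hes1, with Fos also among its leading genes. Clusters 2 (Serpinb11, Fam83a), 3 (Nts, Ntrk2), 8 (Csn3, Krt19, Krt18) and 6 (Flg, Flg2) complete the set, and 23.7% of cluster 6 passed the keratin threshold.

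Cd34 (chr1:194938821-194961292 of GRCm38.p6, plus strand) encodes a sialomucin and was the bulge gene of the set. In the control library it stood at 1092 CPM in HF-SC-like cluster 19 (interval 959 to 1238), 586 CPM in HF-SC-like cluster 1 (560 to 612), 456 CPM in inner bulge-like cluster 4 (418 to 496) and 114 CPM in cluster 13 (91.5 to 141). The induced library gave the same order at 1495, 783, 593 and 215 CPM. These 4 intervals did not overlap in either library. Cluster 7, with hair germ markers, held 16.6 and 23.0 CPM, and 10 of the 11 remaining clusters held less in both libraries, the exception being Flg-led cluster 6 in the induced library at 23.8 CPM. Clusters 1, 4 and 19 together carried 91.1% of all Cd34 UMIs in keratinocytes. The share of cells with a Cd34 UMI was 95.4% and 98.0% in cluster 1, against 1.92% and 0% in the Langerhans or antigen-presenting-like cells, which should lack the gene and had a median of 9304.5 UMIs against 10143 in cluster 1. In the induced library, 0 of 46 such cells allows a share of up to 6.52%, and here as elsewhere the limit that a count of 0 allows is 3 counts of the total.

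**Figure D1:**
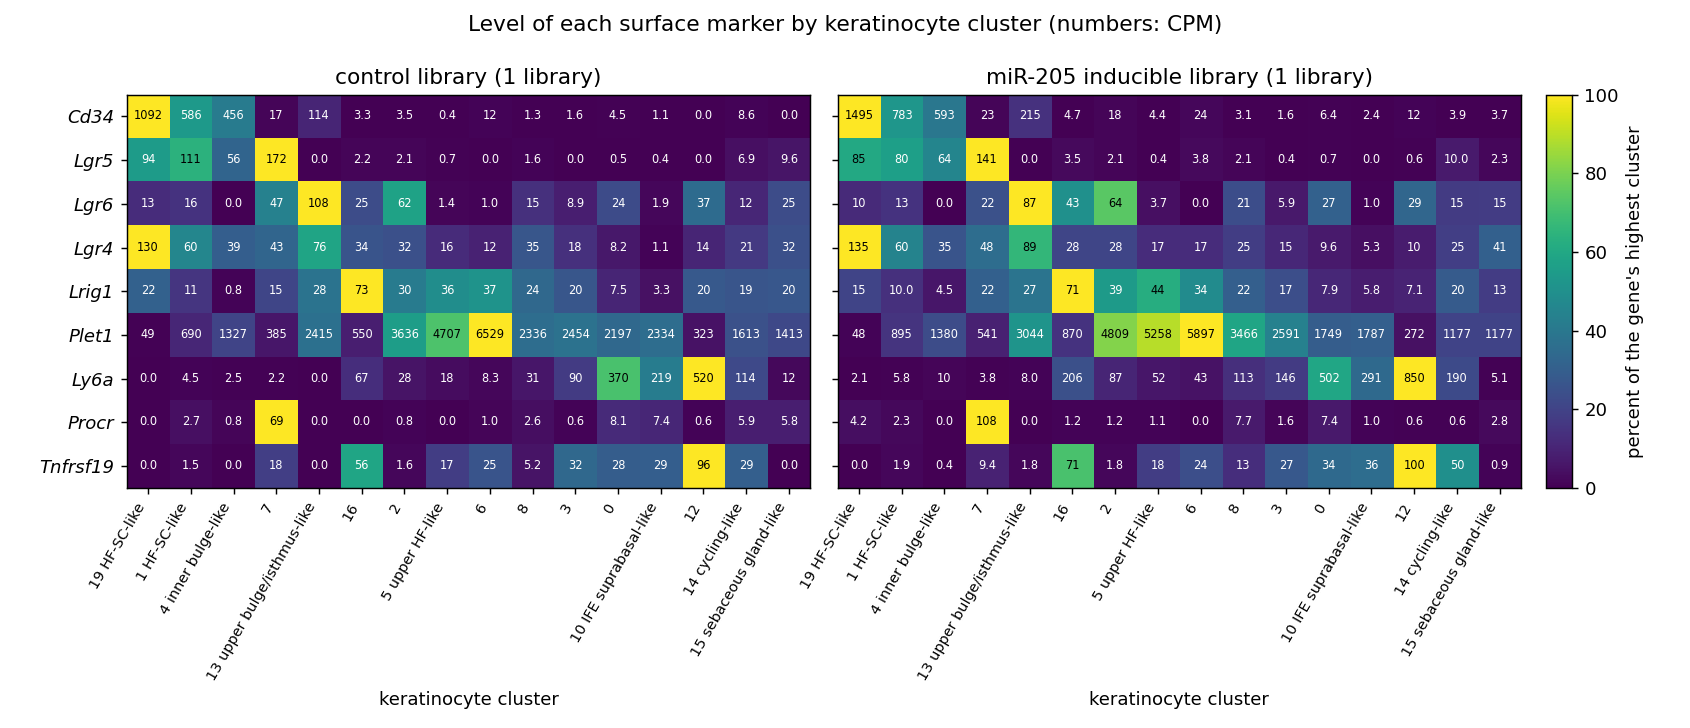
Level of each of the 9 surface markers in the 16 keratinocyte clusters (horizontal axis), in the control library (left) and the miR-205 inducible library (right). Numbers are CPM, and colour gives each value as a percent of the gene's highest cluster in that library, so colours compare clusters within a row and not genes. Cd34 peaks in cluster 19 (1092 and 1495 CPM), Lgr5 and Procr in cluster 7, Lgr6 in cluster 13, Lrig1 in cluster 16, Plet1 in cluster 6, and Ly6a and Tnfrsf19 in cluster 12.

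The 3 R-spondin receptors were spread differently over the follicle. Lgr5 (chr10:115450314-115587780), a Wnt target gene used to mark stem cells of the lower bulge and hair germ, was highest in cluster 7, at 172 CPM in the control (interval 156 to 191) and 141 CPM in the induced library (127 to 156). It followed at 111 and 79.9 CPM in HF-SC-like cluster 1, 94.4 and 85.1 CPM in cluster 19, whose intervals overlap those of cluster 1, and 55.9 and 64.2 CPM in inner bulge-like cluster 4. Clusters 7, 1 and 4 held 90.6% of its UMIs. In upper bulge or isthmus-like cluster 13, 0 of 92 control and 0 of 132 induced cells held an Lgr5 UMI, which allows shares of up to 3.26% and 2.27%.

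Lgr6 (chr1:134983300-135105374, minus strand) was highest where Lgr5 was not detected. It stood at 108 CPM in cluster 13 of the control library (interval 85.6 to 134) and 86.6 CPM in the induced one (70.3 to 106), then at 62.0 and 64.4 CPM in Serpinb11-led cluster 2 and at 47.5 CPM in cluster 7 of the control. In the induced library cluster 16 (43.3 CPM) came next, and cluster 7 held 21.5 CPM. Cluster 13 stood above cluster 2 beyond the intervals in the control library only. None of the 150 control and 332 induced keratinocytes of inner bulge-like cluster 4 held an Lgr6 UMI, although 27.3% and 33.7% of them held one of Lgr5. Lgr6 was also present in Mmp10-led cluster 0, at 24.5 and 26.7 CPM, and in cluster 12, at 37.5 and 28.6 CPM.

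Lgr4 (chr2:109917647-110014257, plus strand) was the broad member of the trio. Its level ran from 3.21 CPM as a mean of both libraries in IFE suprabasal-like cluster 10 to 133 CPM in cluster 19, with a median over clusters of 29.999 CPM against 2.005 for Lgr5 and 15.98 for Lgr6. After cluster 19 (130 and 135 CPM) came cluster 13 (76.2 and 89.3), cluster 1 (60.01 and 60.24) and cluster 7 (42.5 and 48.3). Clusters 19 and 13 did not differ beyond their intervals in either library, and neither did clusters 7, 4 and 15. Its leading 3 clusters by UMIs held 39.0% of Lgr4 UMIs, the lowest such share of the 9 members.

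**Figure D2:**
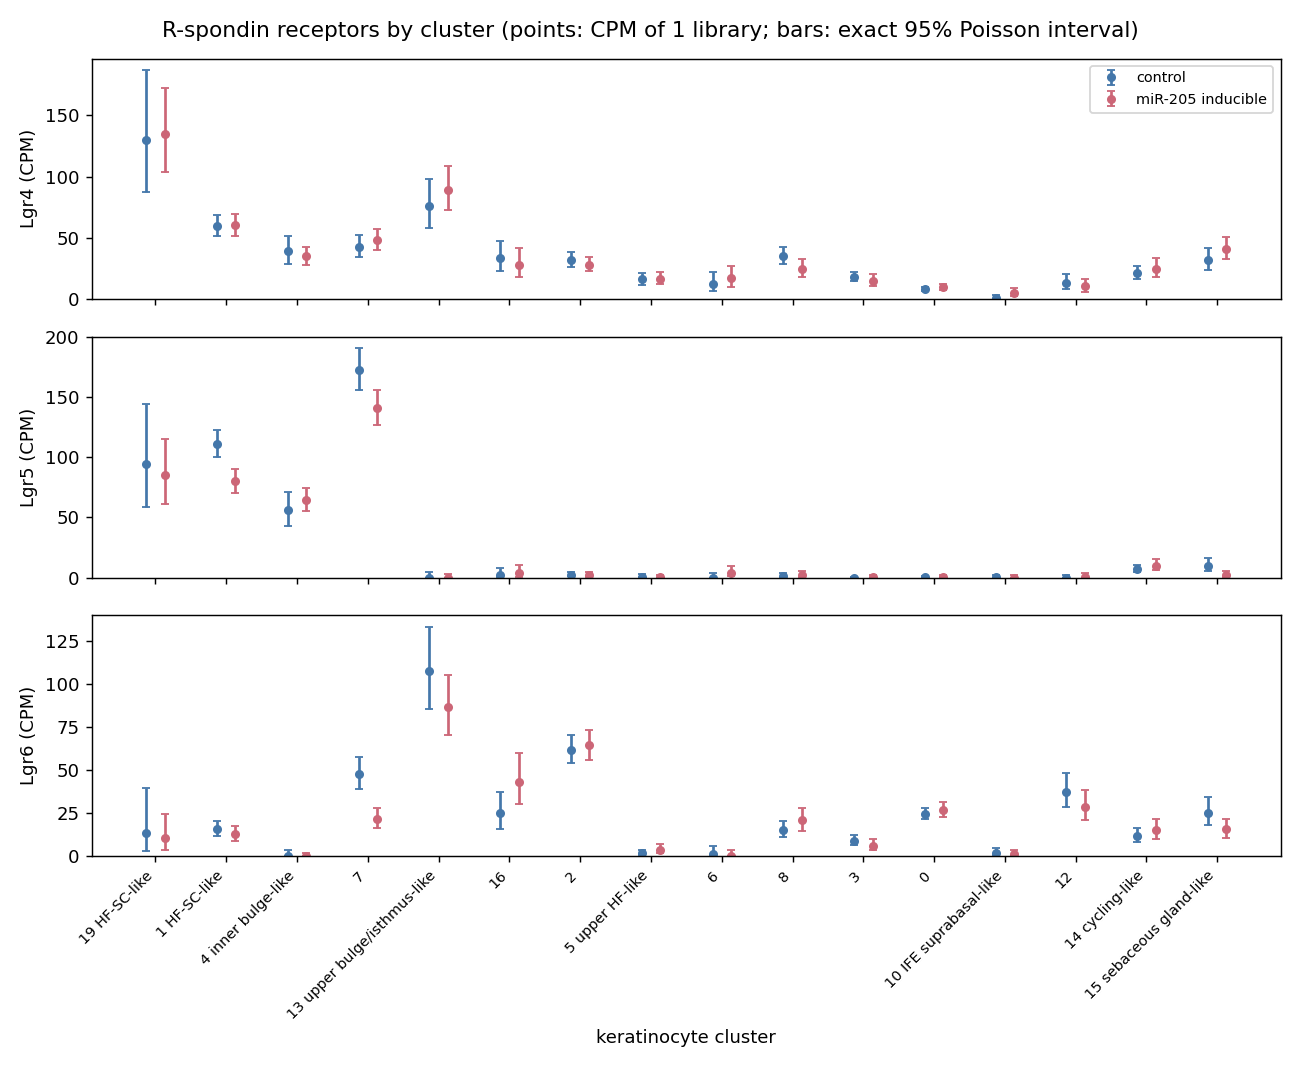
Lgr4, Lgr5 and Lgr6 in CPM (vertical axes, each from 0) in the 16 keratinocyte clusters, 1 point per library with its exact 95% Poisson interval. Lgr5 is highest in cluster 7 and at 0 in cluster 13, Lgr6 is highest in cluster 13 and at 0 in cluster 4, and Lgr4 is above 0 in every cluster.

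Lrig1 and Plet1 were highest outside the HF-SC-like clusters. Lrig1 (chr6:94604529-94700298, minus strand) was highest in Sostdc1-led cluster 16, at 72.7 and 71.4 CPM, beyond the intervals of the next cluster in both libraries. Upper HF-like cluster 5 (35.6 and 44.5 CPM), cluster 6 (37.5 and 34.3) and cluster 2 (30.2 and 39.0) followed and overlapped each other. Inner bulge-like cluster 4 was the lowest, at 0.85 and 4.45 CPM. Plet1 (chr9:50494525-50505639, plus strand) had by far the most UMIs of the set, 94975 in control and 82139 in induced keratinocytes. It fell from 6529 and 5897 CPM in Flg-led cluster 6 through 4707 and 5258 in cluster 5 and 3636 and 4809 in cluster 2 to 49.4 and 47.8 CPM in HF-SC-like cluster 19. The Langerhans or antigen-presenting-like cells held 286 and 252 CPM of Plet1, with a UMI in 34.6% and 37.0% of cells. Cluster 19, with a UMI in 25.8% and 33.9% of cells, was at or below that, so Plet1 there was read as background. Cluster 12 lay close to it in level (323 and 272 CPM) but held a UMI in 74.3% and 65.2% of cells.

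Ly6a and Tnfrsf19 shared their highest cluster. Ly6a (chr15:74994877-74998031) was highest in Edn2-led cluster 12, at 520 CPM in the control (interval 486 to 556) and 850 CPM in the induced library (804 to 897). Mmp10-led cluster 0 followed at 370 and 502 CPM and IFE suprabasal-like cluster 10 at 219 and 291 CPM, each beyond the intervals of the next in both libraries. In the clusters with the most Cd34 it was near 0: cluster 19 held 0 and 2.08 CPM and cluster 1 held 4.50 and 5.80 CPM. Tnfrsf19 (chr14:60963834-61046855, minus strand) was also highest in cluster 12, at 95.9 and 99.95 CPM, then in cluster 16 at 56.4 and 71.4 CPM. It was at 0 in cluster 19 of both libraries, which allows up to 13.5 CPM in the control and 6.23 CPM in the induced library, and had 5 and 6 UMIs in cluster 1. Ly6a belongs to a multigene family. Of the 31-base stretches in the last 500 bases of its transcript, 9.15% were shared with Ly6c1, Ly6c2, Ly6f, Ly6g, Ly6i or 1 uncharacterised gene, so a small part of its reads could be ambiguous.

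Procr (chr2:155751125-155755478, plus strand) was the rarest member, with 333 control and 379 induced UMIs. Cluster 7 held 64.6% of them, at 69.0 CPM in the control (interval 58.5 to 80.8) and 108 CPM in the induced library (95.4 to 121). The next cluster, 0, held 8.12 and 7.42 CPM. In each library 5 cells held much of the Procr signal, 25.5% of UMIs in the control and 33.2% in the induced keratinocytes. The highest cell of each library had 22 and 39 UMIs.

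Outside the keratinocytes, Cd34, Ly6a and Procr were higher in fibroblast-like and endothelial-like cells than in most keratinocyte clusters. This did not hold for every other type. Langerhans or antigen-presenting-like cells held 2.00 and 0 CPM of Cd34, 2.00 and 6.01 CPM of Ly6a and 0 CPM of Procr in both libraries. Fibroblast-like cells held 1058 and 1021 CPM of Cd34 and 1493 and 1399 CPM of Ly6a, with 124 control and 163 induced cells. Endothelial-like cells, of which there were 7 and 15, held 606 and 539 CPM of Cd34, 1188 and 2447 CPM of Ly6a and 285 and 584 CPM of Procr. Lgr6 was at 1 UMI in control and 0 in induced fibroblast-like cells.

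Some genes followed the members closely over the 16 clusters. As a description, each cluster was taken as the mean of both libraries, and 9913 genes were searched. The Pearson correlation of log2(CPM + 1) was 0.98 between Cd34 and Wfdc3, 0.97 with Col8a2 and 0.97 with Pdlim3. Lgr5 was followed by Samd12 (0.94), Gnb1l (0.92) and Rhoc (0.91), Lgr6 by Pdgfb (0.90), Snai2 (0.88) and Art4 (0.85), and Lgr4 by Ltbp3 (0.95), Nfib (0.94) and Nt5e (0.94). Lrig1 was nearest to Bmp7 (0.87), Nqo1 (0.86) and Tpm2 (0.83), and Plet1 to Nipal1 (0.97) and Rad23b (0.95). Ly6a was nearest to Il22ra2 (0.96), Ppp2r2c (0.95) and Dab1 (0.94), Procr to Slc43a1 (0.84), Lpin2 (0.83) and Atp6v1b1 (0.82), and Tnfrsf19 to Il6ra (0.92), Cd55 (0.89) and Chst15 (0.88). Among the members themselves the closest pair was Ly6a and Tnfrsf19 (0.82), followed by Cd34 and Lgr4 (0.70) and Cd34 and Lgr5 (0.69). The most opposed were Lgr4 and Ly6a (-0.82) and Cd34 and Ly6a (-0.73). The products of the latter pair are antigens named for sorting, and the part of the sort was not tested.

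Pairs of members were also counted cell by cell over all keratinocytes, which draws on the same UMIs as the cluster levels. Every keratinocyte was thinned to the same 5000 UMIs, so that 79 control and 67 induced ones below that depth were not used. Lgr5 was detected in 26.3% of the 486 control cells with Cd34 (interval 22.5 to 30.5%) and in 4.31% of those without (3.57 to 5.16%). The induced library gave 23.3% of 726 cells with Cd34 (20.2 to 26.5%) against 5.98% (4.96 to 7.15%) of those without. Lgr4 followed the same pattern at 24.7% against 9.69% in the control and 22.5% against 11.1% in the induced library. The intervals of cells with and without Cd34 did not overlap for either gene. Although Lgr5 and Lgr6 peaked in different clusters, they were found together in some cells. In the control, Lgr6 was detected in 13.3% of cells with Lgr5 (9.26 to 18.2%) and in 8.16% of those without (7.19 to 9.23%). The induced values were 8.51% and 9.69%, with overlapping intervals.

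Ly6a was seldom detected together with Cd34 or Lgr5. It was detected in 3.70% of control cells with Cd34 and in 32.1% of those without, and in 3.44% against 34.0% in the induced library. A sort on CD34 and Sca1 could itself leave out cells with both Cd34 and Ly6a, and its part in this pair was not tested. Only 2 of 241 control cells with Lgr5 held a Ly6a UMI (0.830%, interval 0.101 to 2.97%), against 29.9% of cells without Lgr5, and the induced values were 7 of 282 (2.48%) against 28.3%. Tnfrsf19 went with Ly6a, at 18.0% of control cells with Ly6a against 6.28% without and at 18.3% against 4.31% in the induced library. Lrig1 was detected less in cells with Cd34 (3.50% against 9.42% in the control, 4.68% against 11.8% in the induced library). It was detected in 16.4% of induced cells with Lgr6 against 9.13% without, beyond the intervals, and in 10.9% against 8.27% in the control, where the intervals overlapped. Plet1 was detected in 87.5% of control cells with Lrig1 (interval 82.9 to 91.2%) and in 87.1% of those without (85.8 to 88.3%), which overlap.

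**Figure D3:**
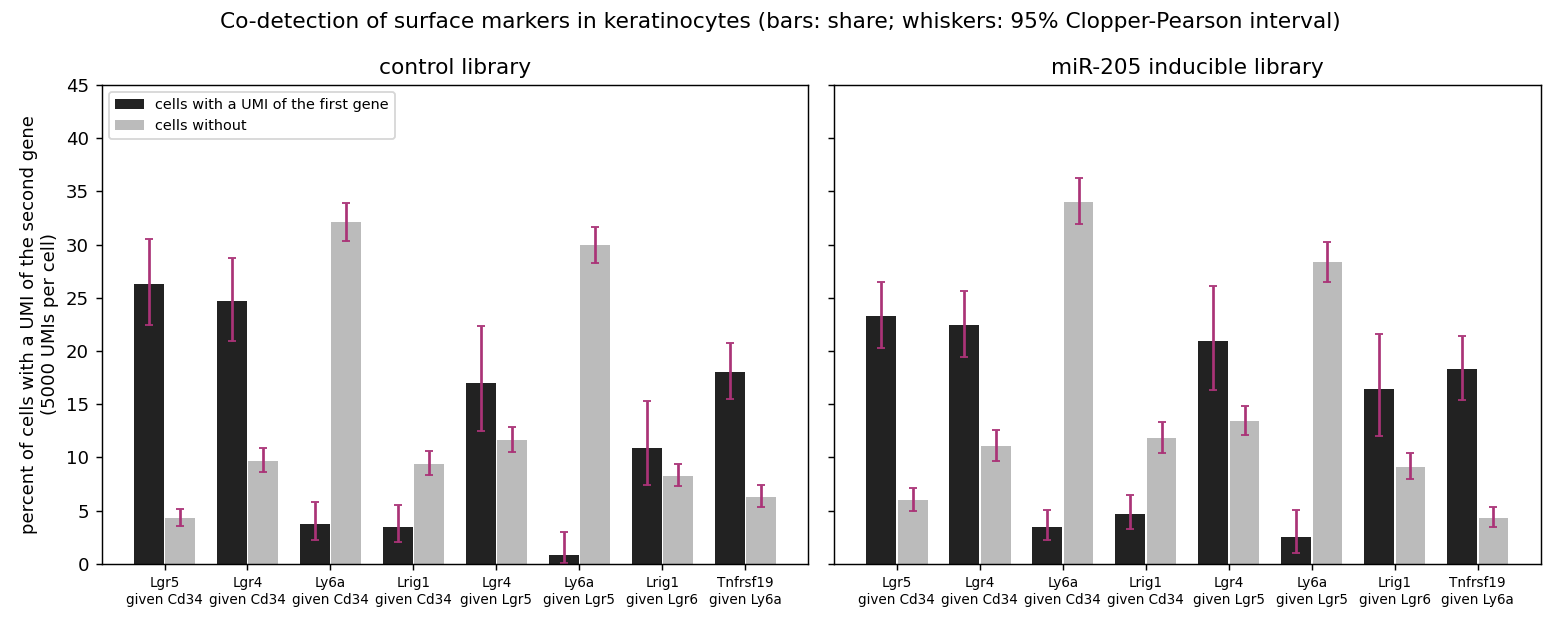
Percent of keratinocytes with a UMI of the second gene named on the horizontal axis among cells with (black) and without (grey) a UMI of the first gene, in cells thinned to 5000 UMIs, for each library. Whiskers are exact 95% Clopper-Pearson intervals. Lgr5 and Lgr4 are more often found in cells with Cd34, and Ly6a in cells without Cd34 or Lgr5.

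Some pairs were also read within single clusters. In HF-SC-like cluster 1 of the control library, Lgr5 was detected in 34.5% of cells with Cd34 (interval 29.0 to 40.4%) and in 36.1% of those without (20.8 to 53.8%), and the induced values, 29.0% and 11.8%, also had overlapping intervals. In cluster 0, Tnfrsf19 was detected in 14.8% of control cells with Ly6a and in 14.1% of those without, and in 14.1% against 11.1% in the induced library. Lgr5 and Procr shared cluster 7 as their highest cluster. Procr was detected there in 11.1% of control cells with Lgr5 (5.21 to 20.05%) and in 15.2% of those without (8.97 to 23.6%), and in 8.99% and 16.1% in the induced library, with overlapping intervals in both. Over all keratinocytes, 41.8% of control and 43.1% of induced cells held exactly 2 of the 9 members, 2.12% and 2.56% held none, and 5 cells in each library held 5, the highest number seen. Of control cells, 2.70% held 2 of the 3 Lgr receptors and 0.225% held all 3, and of induced cells 4.67% and 0.0382%.

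Against the control, Cd34 was the member that differed most in the induced keratinocytes. Its UMIs numbered 3006 in the control and 5366 in the induced library, or 69.9 CPM (interval 67.4 to 72.4) and 147 CPM (143 to 151). The log2 ratio was 1.07 (1.01 to 1.13), and the share of cells with a UMI in thinned cells went from 15.6% to 27.8%. It was the only 1 of the 9 members past 2-fold. Over all 13255 genes with at least 20 UMIs, 4.09% were higher in the induced library by at least 2-fold, 1.77% lower and 5.85% either. The mix of clusters differed at the same time: inner bulge-like cluster 4 made up 4.71% of control and 12.4% of induced keratinocytes, cluster 19 made up 0.973% and 2.20%, and cluster 1 made up 10.3% and 11.1%. With both libraries weighted to the same cluster mix, the Cd34 log2 ratio was 0.45. It was also under 2-fold with keratin thresholds of 5 (0.97) or 100 UMIs (0.93) and among cells under 5% mitochondrial UMIs (0.85), and it was 1.09 without the keratinocytes that held markers of other cell types. If CD34 was among the antigens of the sort, a larger CD34 fraction in the sorted cells cannot be told apart from a larger one in the skin.

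Within the clusters with most Cd34 it was still higher beyond counting error. Cluster 19, with 31 control cells, was not compared for a ratio, but its levels above do not overlap between the libraries. Its log2 ratio was 0.42 in HF-SC-like cluster 1 (0.33 to 0.51), 0.38 in inner bulge-like cluster 4 (0.24 to 0.52) and 0.91 in upper bulge or isthmus-like cluster 13 (0.55 to 1.28), where the share of cells with a UMI was 31.5% in the control and 54.5% in the induced library. In Serpinb11-led cluster 2 it went from 13 to 60 UMIs (2.35, 1.47 to 3.34), at only 3.47 and 17.7 CPM. Cluster 9, of which 2.20% passed the keratin threshold, held 7.55 and 14.4 CPM of Cd34. The part of background in the cluster 2 ratio was not tested. In cycling-like cluster 14 Cd34 went from 25 to 7 UMIs with an interval that held 0. In cluster 7 the interval held 0 (0.47, -0.14 to 1.10). The median of all genes tested was 0.06 in the keratinocyte pool, where 49.1% of them had an absolute log2 ratio of at least 0.2.

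Lgr5 was lower in the clusters where it is highest. Over all keratinocytes its level was 21.4 CPM in the control and 24.3 CPM in the induced library, which is 0.18 on the log2 scale (0.05 to 0.32). In HF-SC-like cluster 1 it was lower in the induced library, at 79.9 against 111 CPM (-0.47, -0.71 to -0.24), and in cluster 7 at 141 against 172 CPM (-0.29, -0.50 to -0.08). In inner bulge-like cluster 4 the interval held 0 (0.20, -0.22 to 0.63). With the same cluster mix the ratio of the pool was -0.26, and among cells under 5% mitochondrial UMIs it was -0.14. Cd34 and Lgr5 thus differed in opposite directions in cluster 1.

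**Figure D4:**
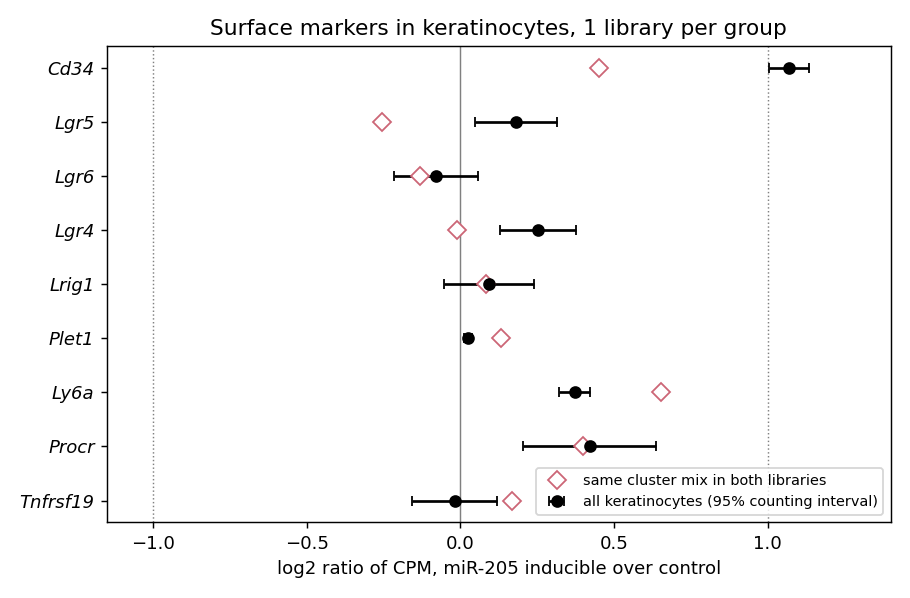
Log2 ratio of CPM (horizontal axis), miR-205 inducible over control, for the 9 surface markers over all keratinocytes, with 1 library per group. Black points carry 95% counting intervals, open diamonds give the ratio with both libraries at the same cluster mix, and dotted lines mark 2-fold. Cd34 lies at 1.07 and at 0.45 with the same mix, and Lgr5 at 0.18 and -0.26.

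The other Lgr receptors differed little. Lgr4 stood at 24.6 and 29.3 CPM over all keratinocytes (log2 ratio 0.25, 0.13 to 0.38), but at -0.01 with the same cluster mix, and in 12 of the 13 clusters with at least 20 UMIs its interval held 0. Lgr6 stood at 22.8 and 21.6 CPM (-0.08, -0.22 to 0.06). In cluster 7 alone it went from 106 to 57 UMIs, 47.5 to 21.5 CPM (-1.14, -1.63 to -0.66), where 2.38% of all genes were lower by at least 2-fold. Lrig1 (18.4 and 19.7 CPM) and Tnfrsf19 (22.1 and 21.8 CPM) had counting intervals that held 0, from -0.05 to 0.24 for the log2 ratio of Lrig1 and from -0.16 to 0.12 for that of Tnfrsf19. Among cells under 5% mitochondrial UMIs the ratios were 0.25 and 0.23, and in thinned cells that of Tnfrsf19 was -0.28.

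Ly6a was higher in nearly every cluster where it could be counted. Over all keratinocytes it went from 144 to 187 CPM (log2 ratio 0.37, 0.32 to 0.42), and the ratio was 0.65 with the same cluster mix. The share of keratinocytes with a Ly6a UMI was lower in the induced library, at 25.5% against 27.7% in thinned cells. Of 12 clusters with at least 20 UMIs, 10 were higher in the induced library beyond counting error, and 1, sebaceous gland-like cluster 15 (19 and 11 UMIs), was lower, at -1.24, or -0.18 without the barcodes of highest doublet score. In the 3 clusters with most Ly6a the log2 ratio was 0.44 in cluster 0 (0.37 to 0.51), 0.41 in cluster 10 and 0.71 in cluster 12. It passed 2-fold in clusters with less of it, with 1.64 in cluster 2 (105 to 296 UMIs), 1.53 in upper HF-like cluster 5 (51 to 141 UMIs), 1.85 in cluster 8 (97 to 219 UMIs) and 1.61 in cluster 16 (62 to 176 UMIs). Among cells under 5% mitochondrial UMIs these were 3.33 in cluster 2, 2.28 in cluster 5, 1.37 in cluster 8 and 2.48 in cluster 16. The shares of all genes higher by at least 2-fold were 2.6% in cluster 2, 4.34% in cluster 4, 2.59% in clusters 5 and 8, and 3.22% in cluster 16. A value of 2.03 in inner bulge-like cluster 4 rested on 3 and 28 UMIs and turned to -0.44 without the barcodes of highest doublet score. Fibroblast-like cells hold much Ly6a and fibroblast markers were higher in the induced gate; without the 947 control and 783 induced keratinocytes that held at least 3 UMIs of other cell types the ratio was 0.27. Langerhans or antigen-presenting-like cells held 2.00 and 6.01 CPM of Ly6a, and the part of free RNA and of the sort was not tested.

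Plet1 differed in both directions. Its pooled level hardly differed, at 2207 and 2245 CPM (log2 ratio 0.02, 0.01 to 0.04). It was higher in the induced library beyond counting error in 8 of 14 clusters. The largest were 0.66 in cluster 16, 0.57 in cluster 8, 0.49 in cluster 7, 0.40 in cluster 2 and 0.37 in HF-SC-like cluster 1. It was lower in 5, which were cycling-like cluster 14 (-0.45), IFE suprabasal-like cluster 10 (-0.39), Mmp10-led cluster 0 (-0.33), sebaceous gland-like cluster 15 (-0.26) and cluster 12 (-0.25). None of these passed 2-fold. With this many UMIs small ratios lie beyond counting error, and the share of all genes beyond it within clusters was not counted. The level in cluster 12, 323 and 272 CPM, was close to the 286 and 252 CPM of the Langerhans or antigen-presenting-like cells. The part of background in its ratio was not tested. Procr went from 7.74 to 10.4 CPM (0.42, 0.20 to 0.64) and from 69.0 to 108 CPM in cluster 7 (0.64, 0.35 to 0.93), and without the 5 cells per library with the most Procr UMIs the pooled ratio was 0.26. The share of thinned keratinocytes with a Procr UMI was 1.87% in the control and 1.61% in the induced library.

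**Figure D5:**
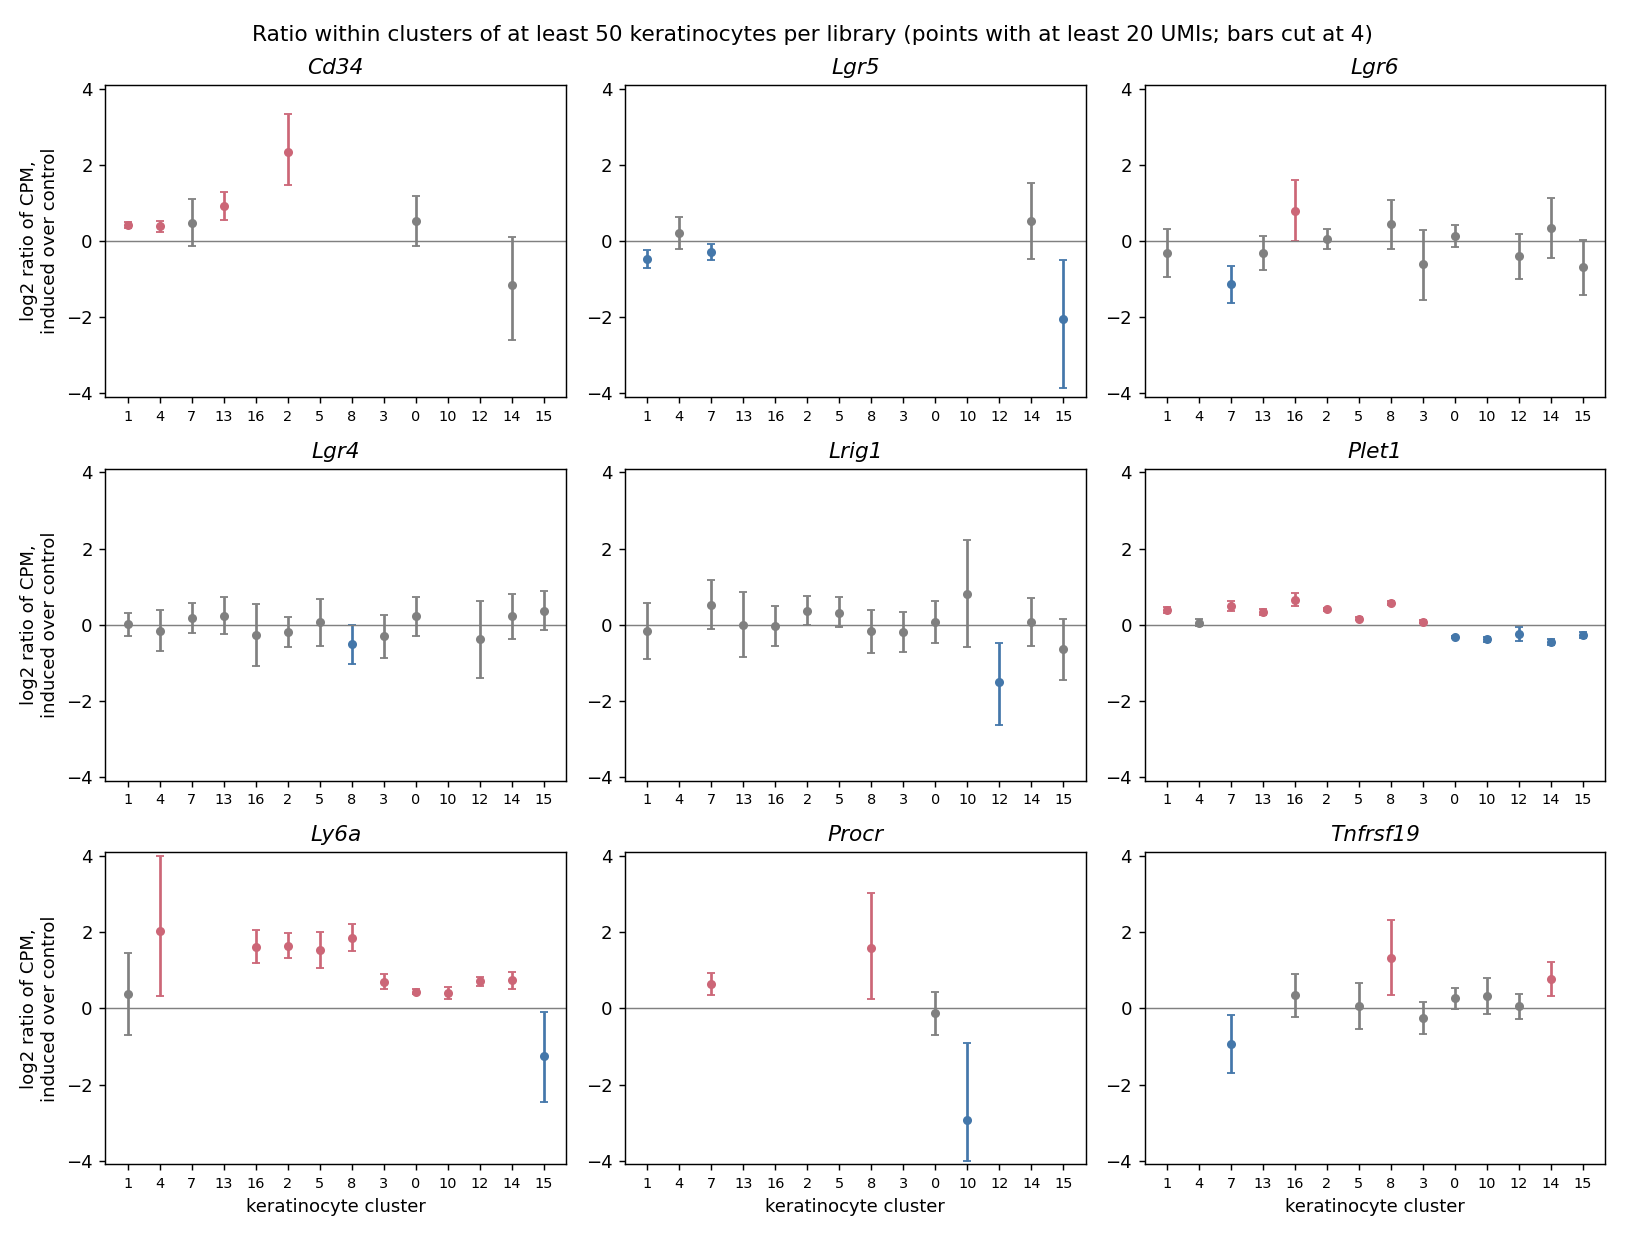
Log2 ratio of CPM (vertical axis), miR-205 inducible over control, for each surface marker within the clusters (horizontal axis) that held at least 50 keratinocytes per library, where the gene had at least 20 UMIs. Bars are 95% counting intervals drawn up to 4 either way, red points lie above 0 beyond the interval, blue points below it, and grey intervals hold 0. Ly6a is red in 10 of 12 clusters, Lgr5 is blue in 3 of 5, and Plet1 is red in 8 and blue in 5 of 14.

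Of 126 combinations of a member and a cluster, 88 had at least 20 UMIs, and 8 of these were higher and 6 lower by at least 2-fold. Across the 14 clusters, between 4.08% and 8.95% of all genes with at least 20 UMIs passed 2-fold in either direction. Of the 14 combinations past 2-fold, 6 were values of Ly6a. The others higher were Cd34 in cluster 2 and Procr and Tnfrsf19 in cluster 8. Those lower were Cd34 in cluster 14, where 2.57% of genes were lower, Lgr5 and Ly6a in cluster 15 (5.1% of genes), Lgr6 in cluster 7, Procr in cluster 10 (2.15%) and Lrig1 in cluster 12 (2.16%), the last from 33 to 11 UMIs.

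The partners of these proteins were read in the same pools. In Lgr and R-spondin signalling, 17 of 19 genes had at least 20 UMIs, 9 were higher in the induced library beyond counting error and none lower, with a median log2 ratio of 0.25 against 0.06 for all genes. Of all genes tested, 28.6% were higher and 18.1% lower beyond counting error, which is the background for each such count below. Lrp6, Fzd1, Fzd2, Fzd3, Fzd6 and Fzd7 were highest in cluster 19, which made up 0.973% of control and 2.20% of induced keratinocytes. The part of the cluster mix in the ratios of these genes was not tested. Past 2-fold was Rspo1, an R-spondin, at 8 and 15 UMIs with an interval that held 0. The Frizzled receptor gene Fzd2 went from 19.2 to 33.04 CPM (0.79, 0.66 to 0.91), the Wnt co-receptor gene Lrp6 from 42.2 to 47.1 CPM (0.16), Lrp5 from 13.8 to 16.4 CPM (0.25) and Fzd3 from 13.4 to 20.03 CPM (0.58). In the protein C pathway, 3 of 4 genes counted were lower, among them F2rl1, a protease-activated receptor, from 179 to 100 CPM (-0.84) and F2r from 26.4 to 15.03 CPM (-0.81), together with the cofactor protein S gene Pros1 from 39.8 to 25.0 CPM (-0.67). Thbd (thrombomodulin) had 39 and 35 UMIs (0.08, -0.62 to 0.77). F2rl1 was highest in cluster 8 (7.25% of control and 4.85% of induced keratinocytes) and Pros1 in cluster 3 (12.3% and 6.52%). F2r was highest in cluster 12, which made up 4.27% and 4.29%. For this list and those below, the part of the cluster mix in the ratios was not tested.

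Among the Ly6 family, 4 of 7 genes counted were higher beyond counting error and 3 lower, with a median of 0.10. Ly6d stood at 2071 and 2224 CPM (0.10), Lypd3 at 1115 and 980 CPM (-0.19), Ly6g6c at 210 and 252 CPM (0.26) and Ly6e at 86.3 and 110 CPM (0.36). Of 5 counted genes of the Lrig family and ErbB receptors, 2 were higher and 2 lower, with Egfr at 73.0 and 62.3 CPM (-0.23), Erbb3 at 35.5 and 32.3 CPM (-0.14), Erbb2 at 15.6 and 17.8 CPM (0.19) and Lrig3 at 13.4 and 17.4 CPM (0.38). In the TNF receptor superfamily only Edar, the ectodysplasin receptor gene, passed 2-fold, from 3 to 23 UMIs, and of 8 genes 4 were higher and 1 lower beyond counting error. Of 14 counted genes for other stem cell surface proteins, 9 were lower and 3 higher, with Epcam at 1461 and 1241 CPM (-0.24), Cd44 at 503 and 446 CPM (-0.17), Cdh1 (E-cadherin) at 400 and 334 CPM (-0.26) and Itga6 (integrin α6) at 323 and 311 CPM (-0.06).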

How the data were processed

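Back skin cells of 1 control and 1 miR-205 inducible mouse were profiled by droplet single-cell RNA-seq. The deposited matrices hold UMI counts per gene and barcode, which the authors made with Cell Ranger 3.0.1 (matrix header) and, per the submitters' processing notes, the mm10 build; they were not normalised. The members and all gene lists were chosen with earlier results of these data known.

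Cells with 200 to 5000 genes and under 10% mitochondrial UMIs were kept (86.6% of control and 85.1% of induced barcodes), and keratinocytes were those with at least 20 UMIs of Krt5 plus Krt14. Of kept cells, 97 control and 103 induced ones held 10 to 19. CPM is the summed counts of a population per 1000000 of its UMIs, with exact Poisson intervals. Log2 ratios carry exact conditional binomial intervals and shares carry Clopper-Pearson intervals. Genes needed 20 UMIs over both libraries, and clusters 50 keratinocytes per library.

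Cells were integrated and clustered in Seurat 5.3.0 (R 4.3.3) on 2000 variable genes, 30 dimensions and a resolution of 0.8, without the listed genes. A cluster was named when 3 or more markers of 1 class were raised at least 2-fold. At least 1 marker of that class had to be among its top 10 genes, with no other class having more there. A cluster stayed unnamed where more than 1 class qualified. It also did where most of its cells passed the keratin threshold and the class was not epithelial. The rule was set after seeing the data. Scrublet (scanpy 1.11.5) marked 4 cells per library, so doublets stayed in, and leaving out the 124 and 105 highest-scoring barcodes is an alternative. Within the gene lists, genes past 2-fold and up to 4 with the most UMIs are named. Seed complements were searched in GENCODE vM1 3′ UTRs (build NCBIM37). Calculations used Python 3.11.15, and the count procedure was tested on simulated data. 1 gene among those with profiles nearest to the members is not reported here.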

Additional observations from a re-analysis of the deposited data

Results flagged for a closer look

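In 5 members, the ratio of induced to control lay beyond counting error in opposite directions in 2 clusters. The difference between clusters was not itself tested in any of them, since each library is 1 sample. For Lgr6 it was 1.94 on the log2 scale, between Sostdc1-led cluster 16 (0.79) and cluster 7 (-1.14), where 23 to 37 and 106 to 57 UMIs were counted. For Plet1 it was 1.12, between cluster 16 (0.66) and cycling-like cluster 14 (-0.45). For Ly6a it was 3.27, between inner bulge-like cluster 4 (2.03, on 3 and 28 UMIs) and sebaceous gland-like cluster 15 (-1.24, on 19 and 11 UMIs), but without the barcodes of highest doublet score these were -0.44 and -0.18. For Procr it was 4.53, between Csn3-led cluster 8 (1.59, on 8 and 15 UMIs) and IFE suprabasal-like cluster 10 (-2.94, on 20 and 2 UMIs). For Tnfrsf19 it was 2.25, between cluster 8 (1.32, on 16 and 25 UMIs) and cluster 7 (-0.93, on 40 and 25 UMIs).

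Among the 750 control and 946 induced kept cells below the keratin threshold, which the comparisons above leave out, Ly6a stood at 308 CPM in the control and 339 CPM in the induced library, a log2 ratio of 0.14 (0.06 to 0.22).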

How the results depend on the processing

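No paired analysis was possible because each group is 1 library. Of 240 recomputed values, 166 stayed within the counting interval of the reported value and 15 had the opposite sign, 6 of these for values that lay beyond counting error; the causes were not tested. The counting depth limits Procr and most within-cluster ratios. Dividing by a median-of-ratios size factor lowers every ratio by 0.06.

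Over all keratinocytes, with cells under 5% mitochondrial UMIs, the log2 ratio was 0.85 for Cd34, -0.14 for Lgr5, 0.15 for Lgr6, 0.25 for Lrig1, 0.055 for Plet1, 0.64 for Procr and 0.23 for Tnfrsf19. With at least 5 keratin UMIs it was 0.97 for Cd34 and 0.30 for Ly6a, and with at least 100 it was 0.93 for Cd34, 0.036 for Lgr5, 0.46 for Ly6a and 0.15 for Tnfrsf19. With the same cluster mix it was 0.45 for Cd34, -0.26 for Lgr5, -0.011 for Lgr4, 0.13 for Plet1, 0.65 for Ly6a and 0.17 for Tnfrsf19. In thinned cells it was 0.073 for Lgr6, 0.31 for Ly6a and -0.28 for Tnfrsf19. Without cells that held 3 or more UMIs of other cell types it was -0.069 for Plet1 and 0.27 for Ly6a, with the size factor -0.036 and 0.31, and with no cell filter 0.0085 for Plet1. Without the 5 cells per library with the most UMIs of a gene, a setting chosen after seeing the data, Procr stood at 0.26. Without the barcodes of highest doublet score the ratio of Ly6a was -0.44 in cluster 4 and -0.18 in cluster 15.

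The level of the leading cluster over other keratinocytes (log2) with cells under 5% mitochondrial UMIs was 5.79 for Cd34, 4.57 for Lgr5, 1.42 for Plet1, 1.56 for Ly6a and 4.25 for Procr. Lgr4, which like Cd34 was highest in cluster 19, gave no value. The number of cluster 19 cells left at this setting is not given, and the Cd34 value may rest on few cells. With at least 100 keratin UMIs it was 4.38 for Cd34, 3.77 for Lgr5, 1.30 for Lgr6, 1.65 for Plet1, 1.84 for Ly6a and 2.14 for Tnfrsf19. Without cells holding other-type UMIs it was 3.65 for Cd34, 3.24 for Lgr5, 2.01 for Lgr4, 1.49 for Plet1 and 4.96 for Procr.

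The share of Lgr5 in cells with Cd34 minus cells without was 23.3 percentage points with at least 100 keratin UMIs and 30.2 unthinned. For Ly6a with Cd34 it was -32.3 under 5% mitochondrial UMIs, -37.6 with at least 100 keratin UMIs and -38.4 unthinned, and for Lgr4 with Lgr5 12.1 unthinned. Of all genes, 2.75% passed 2-fold with at least 100 UMIs and 21.2% with at least 1 UMI and a pseudocount of 0.5.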
